A study of Mus musculus with 80 samples.

Results

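Pecam1, Esam, Cdh5, Tek, Tie1, Kdr, Flt1 and Eng are the genes of 8 proteins that sit at the junctions or on the surface of the endothelial cells lining blood vessels, and their transcripts were followed in the hearts of sleep-deprived and sleeping mice. They were picked by name, as the probe set whose only gene symbol is that name, and each was carried by 1 probe set out of 18820 gene symbols measured. The choice was made with earlier results of these data known, so that counts beside the share of all probe sets are a description. Hearts of 80 male C57BL/6J mice, about 10 weeks old, were hybridised to Affymetrix Mouse Gene 1.0 ST arrays, with an array for every animal. The sleep-deprived mice were held awake from lights-on by gentle handling and were killed after 3 h (n = 8), 6 h (n = 9), 9 h (n = 9) or 12 h (n = 8). The sleeping mice were left undisturbed and were killed at the same 4 times (n = 9 at each), and baseline mice were killed at lights-on (n = 10). All groups shared the strain, the genotype, a cycle of 12 h light and 12 h dark, food offered in the dark phase only and death by cervical dislocation, and no drug was given. Sleep was scored from inactivity, so that sleep and rest were not separated, and handling was part of every deprived group.

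The endothelium forms a barrier that is held together by adhesion molecules at the contacts between cells, above all VE-cadherin (the product of Cdh5), PECAM-1 (Pecam1) and the immunoglobulin-like molecule ESAM (Esam). Growth and quiescence of vessels are set by receptor tyrosine kinases on the same cells. VEGFR2 (Kdr) carries most of the signal of VEGF-A, whereas VEGFR1 (Flt1) binds VEGF-A, VEGF-B and placental growth factor and can hold VEGF-A away from VEGFR2. TIE2 (Tek) is the receptor of the angiopoietins, TIE1 (Tie1) is its partner, and endoglin (Eng) is a co-receptor for BMP9, BMP10 and TGF-β.

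RefSeq promoters (build GRCm38.p6) were at hand for 5 of the 8 genes, Tek, Tie1, Kdr, Flt1 and Eng. Those of Kdr, Flt1 and Eng are printed because the results turn on these genes. Kdr fell with time in both states. Flt1 was higher with deprivation and, at 12 h, above baseline in both states, and Eng differed most between states at 12 h. Each line gives the 250 bases before the transcription start, 5′ to 3′ on the strand of the gene, from chr5:75978456-75978705 (Kdr, minus strand), chr5:147726012-147726261 (Flt1, minus strand) and chr2:32646345-32646594 (Eng, plus strand). Capitals mark GGAA and its reverse complement TTCC, the core of sites for ETS factors, a family that acts in endothelial genes.
Kdr: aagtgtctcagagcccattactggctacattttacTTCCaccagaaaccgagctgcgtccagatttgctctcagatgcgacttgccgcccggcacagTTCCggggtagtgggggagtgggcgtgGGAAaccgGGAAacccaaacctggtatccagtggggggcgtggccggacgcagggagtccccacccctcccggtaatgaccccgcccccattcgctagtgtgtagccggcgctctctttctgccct
Flt1: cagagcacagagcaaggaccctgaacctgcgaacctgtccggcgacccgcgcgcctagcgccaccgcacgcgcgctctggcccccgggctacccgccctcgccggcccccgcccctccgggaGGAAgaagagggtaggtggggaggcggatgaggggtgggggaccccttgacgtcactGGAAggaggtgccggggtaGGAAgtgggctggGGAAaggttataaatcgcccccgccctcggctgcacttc
Eng: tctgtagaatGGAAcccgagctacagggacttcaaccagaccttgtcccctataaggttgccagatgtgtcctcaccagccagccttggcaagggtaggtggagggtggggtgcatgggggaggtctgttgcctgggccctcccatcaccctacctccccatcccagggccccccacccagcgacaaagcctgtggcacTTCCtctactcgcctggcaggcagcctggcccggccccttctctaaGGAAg
The letters GGAA were found on either strand 4 times in Kdr, 4 times in Flt1, 3 times in Eng, 2 times in Tek and 7 times in Tie1, and 93.45% of 32851 promoter windows of the same length held at least 1 match (median 3). CACCC, the core of sites for Krüppel-like factors, was found 1 time in Kdr, Flt1 and Tek, 2 times in Tie1 and 4 times in Eng, against 52.01% of all windows with a match. CACGTG, the E-box of clock factors, was found in 0 of the 5 windows, against 6.02% of all. The 3 motifs were searched on both strands and neighbouring matches may share letters (CACGTG is its own reverse complement), and a match of letters is a description only.

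The values are log2 intensities, in which a difference of 1 is a factor of 2. Array medians lay between 5.23 and 5.39, and arrays correlated with each other at 0.978 to 0.995. The number of animals, not a depth, limits the precision, and levels of different genes are not compared because probes differ in brightness. In the order of their title numbers, which go on without a gap, the arrays form 4 runs, whose meaning the labels do not give. Runs 1 and 2 hold the 9 and 12 h animals, and runs 3 and 4 the 3 and 6 h animals. All baseline animals are in run 3. Both states occur in every run at the times it covers, and states can be compared inside runs. In each run, though, the title numbers of all deprived arrays come before those of the sleeping arrays. State thus cannot be told apart from that order, and what the order stands for is not given. A difference between 0 to 6 h and 9 to 12 h cannot be told apart from the runs. Of the 80 arrays, 5 correlated less with the rest (12 h deprived animal 3, 9 h sleeping animal 1, 6 h deprived animal 5, 3 h sleeping animal 1 and 3 h deprived animal 5), and results that change without them are given both ways. As the samples are tissue, fewer endothelial cells and less RNA per cell cannot be told apart.

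**Figure D1:**
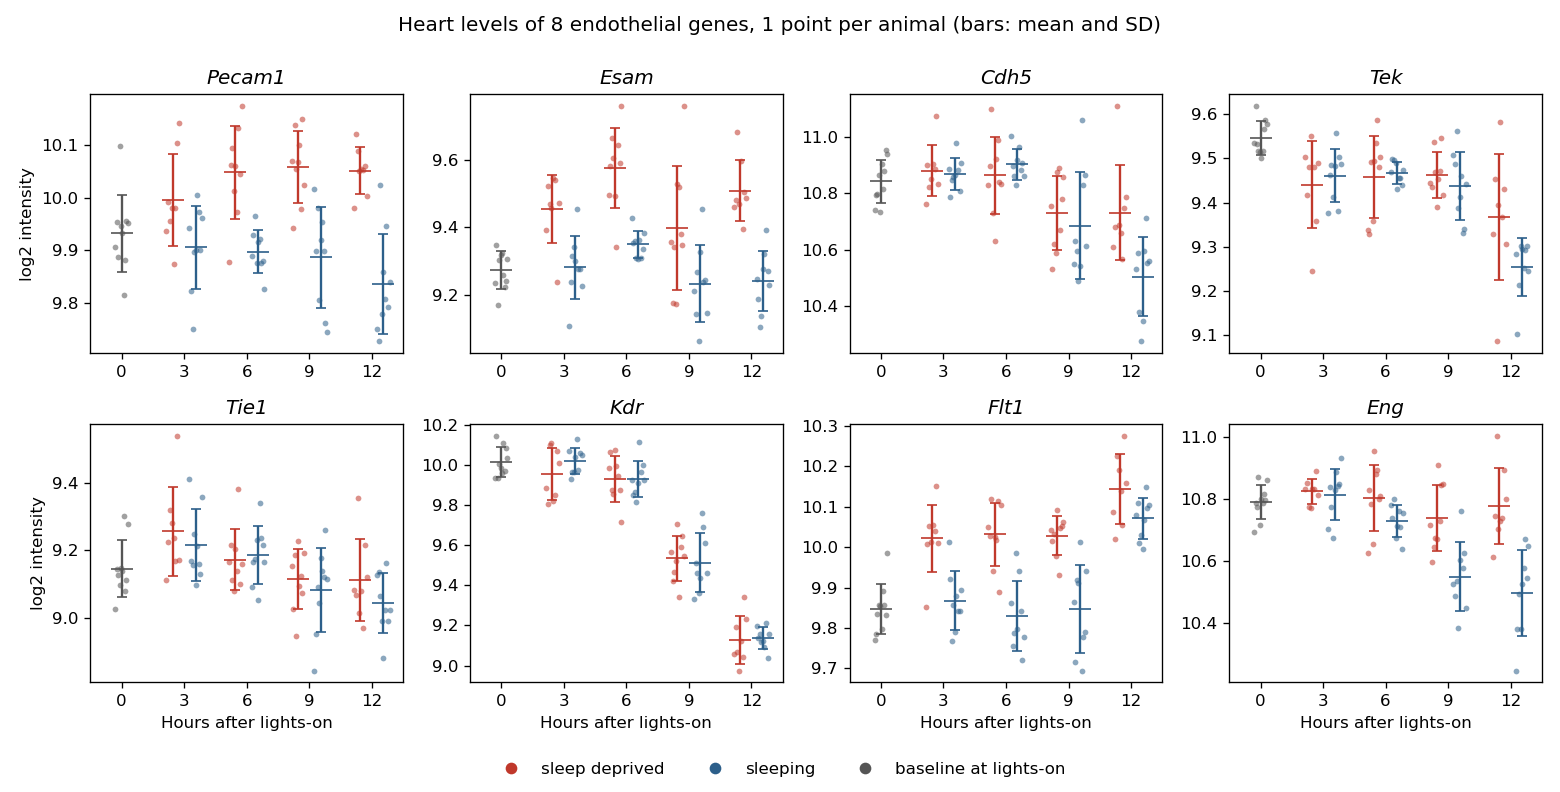
Log2 intensity of the 8 genes (y axis, 1 panel a gene) against hours after lights-on (x axis), with 1 point per animal, red for sleep deprived, blue for sleeping and grey for baseline, and bars for mean and SD (n = 8 to 10 per group). Kdr dropped to a mean of 9.13 in deprived and 9.14 in sleeping mice at 12 h, Flt1 ended highest in both states at 12 h, and Pecam1, Esam and Eng separated by state.

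The first question was which of the genes differed with behavioural state at matched times of day. Pecam1 and Esam, both adhesion molecules of the junction, Flt1 and Eng were higher in sleep-deprived hearts, between 1.10-fold and 1.155-fold, and the other 4 genes were not called. After 12 h, Esam intensities were 9.39, 9.48 and 9.68 (lowest, median and highest) in deprived mice, against 9.10, 9.25 and 9.39 in sleeping mice. Pecam1 stood at 9.98, 10.05 and 10.12 in 12 h deprived mice and at 9.73, 9.81 and 10.02 in 12 h sleeping mice. The 8 deprived mice all lay above the highest of the 9 sleeping mice for Esam, and 6 of 8 did so for Pecam1. Eng read 10.61, 10.74 and 11.003 in 12 h deprived mice, against 10.24, 10.52 and 10.67 in 12 h sleeping mice, with 7 of 8 deprived animals above the highest sleeping one. Flt1 at 6 h read 9.89, 10.03 and 10.12 in deprived mice, against 9.72, 9.80 and 9.99 in sleeping mice, with 7 of 9 deprived animals above the sleeping range.

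Over the 4 times together, in a limma fit of state on 34 deprived and 36 sleeping arrays, 4 of the 8 genes were higher in deprived hearts at a false discovery rate of 1% over 35556 probe sets and 0 were lower, and the same 4 had an unadjusted p under 0.05. In the same fit 8.38% of all probe sets were called, 3.43% as higher and 4.94% as lower. Of the 8 genes, Esam had the largest difference, 0.21 ± 0.029 (SE, 1.155-fold, adjusted p = 9.97e-08), and 30 of 34 deprived animals exceeded the sleeping mean of their own time. Pecam1 differed by 0.16 ± 0.020 (1.115-fold, adjusted p = 6.28e-09, 32 of 34 animals). Flt1 differed by 0.15 ± 0.027 (1.11-fold, adjusted p = 1.47e-05, 31 of 34), and Eng by 0.14 ± 0.033 (1.10-fold, adjusted p = 0.00147, 29 of 34). The median difference was 0.099 over the 8 genes and -0.0064 over all probe sets.

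The third junction gene and the other receptors gave smaller values. Cdh5 differed by 0.060 ± 0.042 (adjusted p = 0.407, 20 of 34 animals higher), Tek by 0.029 ± 0.025 (adjusted p = 0.545, 24 of 34), Tie1 by 0.031 ± 0.029 (adjusted p = 0.583, 20 of 34) and Kdr by -0.0070 ± 0.085 (adjusted p = 0.976, 17 of 34). With time of day as a factor in the fit the same 4 genes were called, against 10.4% of all probe sets, and the difference of Kdr, which changed strongly with time, was -0.012 ± 0.026 (adjusted p = 0.83). Inside the runs, with time as a factor, the difference was 0.181, 0.209, 0.105 and 0.135 for Pecam1 in runs 1 to 4, and 0.229, 0.197, 0.209 and 0.188 for Esam. Flt1 differed by 0.118, 0.147, 0.156 and 0.205, and these 3 genes thus had positive differences in each run. Eng differed by 0.254 and 0.217 in runs 1 and 2, which hold the 9 and 12 h animals, and by 0.0351 and 0.0475 in runs 3 and 4. In the fits of single runs only Eng in run 1 (adjusted p = 0.00764) and Esam in run 3 (adjusted p = 0.00375) were called. The call of Eng was lost without the 9 h animals (0.122, adjusted p = 0.0327) and without the 12 h animals (0.0892, adjusted p = 0.0815). When arrays were centred on their medians 1774 probe sets were higher and 1182 lower, in place of 1221 and 1758, and the same 4 of the 8 genes were called.

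**Figure D2:**
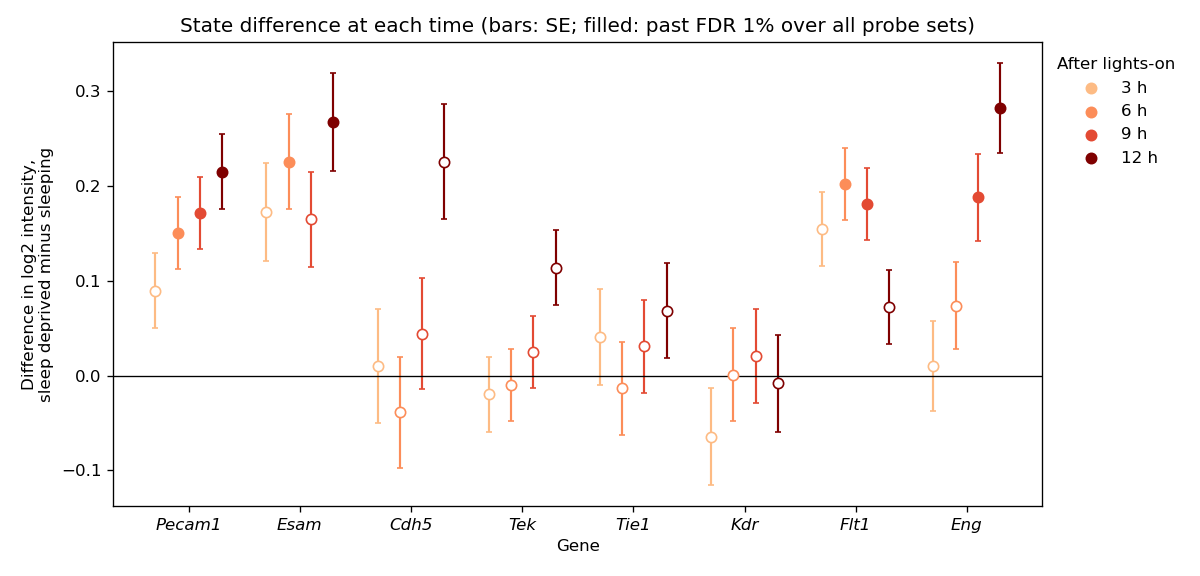
Difference in log2 intensity, sleep deprived minus sleeping (y axis), for each gene (x axis) at 3, 6, 9 and 12 h after lights-on (light to dark), with bars for the SE and filled symbols past a false discovery rate of 1% over all probe sets. Pecam1 and Esam lay above 0 at all 4 times, Flt1 was furthest above 0 at 6 h (0.20) and Eng at 12 h (0.28), and Kdr stayed within its SE of 0 at 6, 9 and 12 h.

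The next question was at which hours the states parted. After 3 h, 0 of the 8 genes were called by limma, against 1.59% of all probe sets, and 3 had an unadjusted p under 0.05: Flt1 (0.15 ± 0.039, adjusted p = 0.0103), Esam (0.17 ± 0.052, adjusted p = 0.0402) and Pecam1 (0.090 ± 0.039, adjusted p = 0.207). Without the 5 arrays of low correlation Flt1 was called at 3 h (0.168, adjusted p = 0.00896). After 6 h, 3 genes were higher in deprived hearts, against 2.58% of all probe sets called, 1% as higher: Esam by 0.23 ± 0.050 (adjusted p = 0.00178), Flt1 by 0.20 ± 0.038 (adjusted p = 1.23e-04) and Pecam1 by 0.15 ± 0.038 (adjusted p = 0.00746). After 9 h Flt1 (0.18 ± 0.038, adjusted p = 6.92e-04), Pecam1 (0.17 ± 0.038, adjusted p = 0.00141) and Eng (0.19 ± 0.046, adjusted p = 0.00456) were higher, against 3.31% of all probe sets called, 1.6% as higher. Esam at 9 h read 9.17, 9.36 and 9.76 in deprived mice, the widest spread of its 9 groups, and 9.06, 9.24 and 9.45 in sleeping mice, and it missed the threshold (0.16 ± 0.050, adjusted p = 0.0295).

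After 12 h, Eng (0.28 ± 0.047, 1.22-fold, adjusted p = 2.89e-05), Esam (0.27 ± 0.052, 1.20-fold, adjusted p = 2.93e-04) and Pecam1 (0.22 ± 0.039, 1.16-fold, adjusted p = 1.13e-04) were higher in deprived hearts, against 3.13% of all probe sets called, 1.44% as higher. The VE-cadherin gene Cdh5 was close to the threshold at this time alone (0.23 ± 0.060, adjusted p = 0.0111), and all 8 deprived animals lay above the sleeping mean. It was called with run as a factor (0.235, adjusted p = 0.00305), whereas without the 5 arrays of low correlation, of which 12 h deprived animal 3 was the highest of its group at 11.11, its difference was 0.172 (adjusted p = 0.0651). Tek had 7 of 8 deprived animals above the highest sleeping one, and the exception was the same animal 3, at 9.09. Its difference was 0.11 ± 0.039 (adjusted p = 0.0585), and without the 5 arrays it was 0.154 and was called (adjusted p = 0.00278). Flt1, which had the smallest p of the 8 genes at 3 h, stood 0.073 ± 0.039 higher in deprived mice at 12 h (adjusted p = 0.283). A test of whether the state difference depended on time called 0 of the 8 genes, against 0.371% of all probe sets, with an unadjusted p under 0.05 for 2, Eng (F = 6.53, adjusted p = 0.0421) and Cdh5 (F = 3.69, adjusted p = 0.171). For Flt1 the same test gave F = 2.16 (adjusted p = 0.362), so that a different timing of its state difference was not shown.

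The second axis of the study was the passage of the light phase itself, and here the pair of VEGF receptors moved apart. Kdr read 9.94, 9.99 and 10.15 (lowest, median and highest) in baseline mice. After 9 h it read 9.34, 9.55 and 9.71 in deprived mice and 9.33, 9.46 and 9.76 in sleeping mice, and after 12 h it read 8.97, 9.10 and 9.34 in deprived mice and 9.04, 9.14 and 9.21 in sleeping mice. In both states the 12 h range lay wholly below the 9 h range, and the 9 h range wholly below baseline. Kdr was lower than at baseline, with a difference of -0.48 ± 0.048 after 9 h and of -0.89 ± 0.050 after 12 h of deprivation (adjusted p = 9.18e-13 and 5.24e-25), the last a 1.85-fold difference. After 9 and 12 h of sleep the difference was -0.50 ± 0.048 and -0.88 ± 0.048 (adjusted p = 2.16e-13 and 1.35e-25). At 3 and 6 h Kdr differed from baseline by -0.060 and -0.085 in deprived mice, and by 0.0046 and -0.086 in sleeping mice, with adjusted p of 0.299 to 0.98. The fitted change over 12 h was -0.85 ± 0.073 with deprivation and -0.89 ± 0.067 with sleep, each in a fit of its own. A joint fit of both states with a common level at lights-on gave a difference of slopes, deprived minus sleeping, of 0.0038 ± 0.058 over 12 h (adjusted p = 0.978), which does not show that they were equal. Slope differences given for the other genes are from the same joint fit and need not equal the difference of the separate slopes. With the common level at lights-on, a state difference of constant size also counts as slope.

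The step of Kdr between 6 and 9 h falls where the runs change and cannot be told apart from them. Between 9 and 12 h, which lie in the same runs, Kdr fell again, with a difference of -0.40 ± 0.051 in deprived mice (adjusted p = 2.96e-07) and of -0.38 ± 0.049 in sleeping mice (adjusted p = 7.80e-08). With run as a factor these values were -0.4 (adjusted p = 2.93e-07) and -0.376 (adjusted p = 5.28e-08). In this comparison 0.2% of all probe sets were called in deprived and 1.33% in sleeping mice. With run as a factor the slope of Kdr over all times was -0.0357 per hour in deprived mice (adjusted p = 0.0507) and -0.0447 per hour in sleeping mice (adjusted p = 0.00165), against -0.0709 and -0.0742 without it.

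Flt1, the gene of the other VEGF receptor, ran the other way. It read 10.02, 10.15 and 10.28 in 12 h deprived mice and 9.996, 10.08 and 10.15 in 12 h sleeping mice, against 9.77, 9.84 and 9.99 in baseline mice, so that neither 12 h group overlapped the baseline range. Against baseline, Flt1 was 0.30 ± 0.038 higher after 12 h of deprivation (1.23-fold, adjusted p = 2.17e-09) and 0.22 ± 0.037 higher after 12 h of sleep (1.17-fold, adjusted p = 1.62e-06). Deprived mice were above baseline at every time, by 0.18 ± 0.038 at 3 h (adjusted p = 0.00193), 0.19 ± 0.037 at 6 h (adjusted p = 2.14e-04) and 0.18 ± 0.037 at 9 h (adjusted p = 1.87e-04). In sleeping mice Flt1 lay within 0.021 of baseline at 3, 6 and 9 h and was 0.22 ± 0.038 higher at 12 h than at 9 h (adjusted p = 3.04e-05). The change between 9 and 12 h of deprivation was 0.12 ± 0.039 (adjusted p = 0.185). The trend of Flt1 over sleep rested on the 12 h animals, as its slope was -0.00114 per hour without them (adjusted p = 0.897). Its call was lost in 2 further alternatives, among them run as a factor.

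Set against baseline, deprived mice had 1 gene called at 3 h (Flt1), 2 at 6 h (Esam and Flt1), 2 at 9 h (Flt1 and Kdr) and 4 at 12 h (Esam and Flt1 higher, Tek and Kdr lower), against 1.54, 4.44, 6.61 and 9.75% of all probe sets. Sleeping mice had 0 called by limma at 3 h and 0 at 6 h (1 gene, Tek, with an unadjusted p under 0.05 at each), 2 at 9 h (Kdr and Eng, both lower) and 5 at 12 h, against 0.16, 1.54, 8.43 and 11.8% of all probe sets. These comparisons all share the 10 baseline animals, which lie in run 3. Those at 3 and 6 h set animals of runs 3 and 4 against run 3 alone. Further calls came at 9 h of sleep for Tek (-0.132 with centring, -0.118 without the 5 arrays of low correlation, adjusted p = 0.00507 and 0.00721), and for Pecam1 at 12 h of sleep with centring (-0.141, adjusted p = 0.00369) and at 12 h of deprivation with quantile normalisation (0.133, adjusted p = 0.00912). The 5 genes at 12 h of sleep were Flt1, higher, and Kdr, Cdh5, Eng and Tek, lower. Esam was above baseline by 0.30 ± 0.049 at 6 h (adjusted p = 4.80e-06) and by 0.24 ± 0.051 at 12 h of deprivation (adjusted p = 2.71e-04), and it differed from baseline by -0.032 ± 0.049 at 12 h of sleep (adjusted p = 0.725).

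Endoglin and VE-cadherin transcripts were lower after 12 h of sleep than at baseline. After 12 h of sleep Eng read 10.24, 10.52 and 10.67, against 10.69, 10.79 and 10.87 in baseline mice, and lay wholly below the baseline range. It was -0.29 ± 0.045 from baseline after 12 h of sleep (adjusted p = 2.85e-07) and -0.24 ± 0.045 after 9 h (adjusted p = 4.07e-05), and after 12 h of deprivation it was -0.012 ± 0.046 from baseline (adjusted p = 0.918). Cdh5 read 10.28, 10.55 and 10.71 after 12 h of sleep, against 10.73, 10.84 and 10.95 in baseline mice, again with no overlap, and its difference was -0.34 ± 0.057 (adjusted p = 3.52e-06). After 12 h of deprivation Cdh5 was -0.11 ± 0.059 from baseline (adjusted p = 0.244). The joint fit gave slopes of Eng that differed between deprivation and sleep by 0.24 ± 0.036 over 12 h (adjusted p = 1.25e-07), whereas those of Cdh5 differed by 0.13 ± 0.048 (adjusted p = 0.0533). Both declines span the runs, and with run as a factor the slopes over sleep were -0.0149 per hour for Eng (adjusted p = 0.213) and -0.00682 per hour for Cdh5 (adjusted p = 0.751).

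The angiopoietin receptor gene Tek was lower at the end of the light phase in both states. It read 9.09, 9.38 and 9.58 in 12 h deprived mice and 9.10, 9.28 and 9.30 in 12 h sleeping mice, against 9.50, 9.53 and 9.62 in baseline mice. Sleeping mice lay wholly below baseline, and deprived mice overlapped it. Tek was -0.18 ± 0.038 from baseline after 12 h of deprivation (adjusted p = 2.72e-04) and -0.29 ± 0.037 after 12 h of sleep (adjusted p = 1.72e-09). Both differences from baseline span the runs. In sleeping mice -0.18 ± 0.038 of this lay between 9 and 12 h (adjusted p = 0.00114), inside runs 1 and 2. The change between 9 and 12 h of deprivation was -0.094 ± 0.039 and was not called (adjusted p = 0.333). Tie1, the partner of TIE2, was not called in these comparisons as deposited. Its slope over sleep (-0.0108 per hour, adjusted p = 0.0233) was called when arrays were centred (-0.0146) and when baseline was left out (-0.0205), both with an adjusted p of 0.00258. Its group means ran from 9.26 at 3 h of deprivation to 9.04 at 12 h of sleep.

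**Figure D3:**
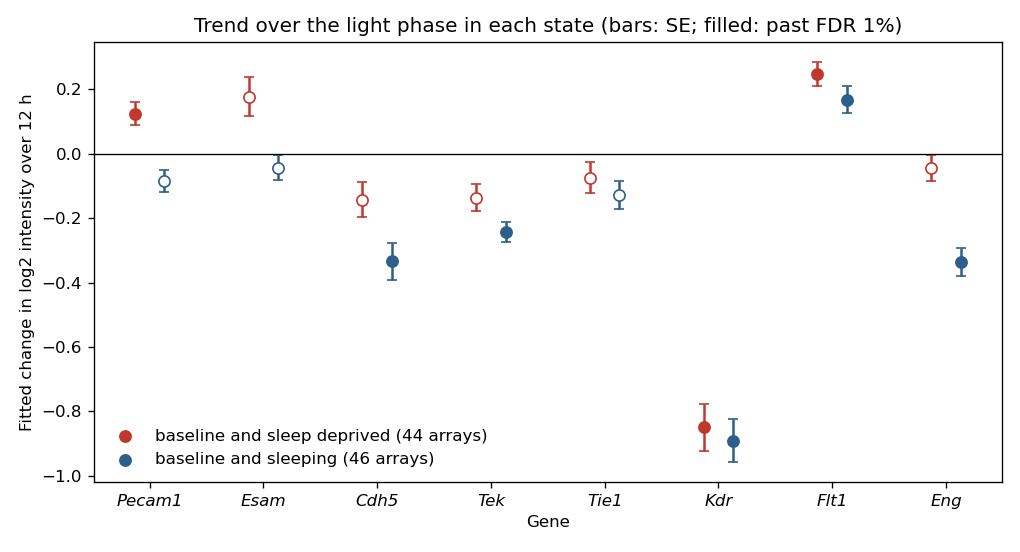
Fitted change in log2 intensity over 12 h (y axis) for each gene (x axis), from slopes on hours in baseline and deprived animals (red, 44 arrays) or baseline and sleeping animals (blue, 46 arrays), with bars for the SE and filled symbols past a false discovery rate of 1%. Kdr changed by -0.85 over deprivation and -0.89 over sleep, and the fitted change of Flt1 was above 0 in both states. Over sleep the change of Flt1 rested on the 12 h animals. All slopes shown span the runs. Eng, Cdh5 and Tek were called over sleep but not over deprivation as deposited. Their difference of slopes, from a joint fit with a common level at lights-on, was called for Eng and not for Cdh5 or Tek.

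As slopes on hours, 3 of the 8 genes were called over deprivation (Pecam1 and Flt1 rising, Kdr falling), against 10.2% of all probe sets. Over sleep, 5 were called (Flt1 rising, and Kdr, Eng, Cdh5 and Tek falling), against 17.6%. In the joint fit the slope was higher in deprivation than in sleep for 4 genes and lower for 0 (unadjusted 6 and 0). Of all probe sets 10.2% were called, 4.44% as higher. The 4 were Esam (0.29 ± 0.043 over 12 h, adjusted p = 2.00e-07), Eng (0.24 ± 0.036), Pecam1 (0.24 ± 0.028, adjusted p = 3.53e-10) and Flt1 (0.18 ± 0.035, adjusted p = 4.45e-05). A state difference of constant size also counts as slope in this fit, so that diverging slopes are not shown by it. The separate fits of Flt1 gave changes of 0.25 ± 0.037 over deprivation and 0.17 ± 0.043 over sleep, and its state difference was smallest at 12 h (0.073). The test of whether the state difference depended on time called 0 of the 8 genes. In the separate fits Pecam1 changed by 0.13 ± 0.035 over 12 h of deprivation (adjusted p = 0.00791), and its value over sleep was -0.085 ± 0.034 (adjusted p = 0.0576). The call of Pecam1 over deprivation was lost in 5 of 6 alternatives (adjusted p = 0.0213 with centring, 0.502 without baseline, 0.0166 without the 12 h animals, 0.0149 without the 5 arrays of low correlation and 0.312 with run as a factor). Over deprivation Cdh5 was called without the 5 arrays of low correlation (-0.0147 per hour, adjusted p = 0.0094) and Tek with centring (-0.0122 per hour, adjusted p = 0.00513). The slopes of Tek differed by 0.067 ± 0.031 over 12 h (adjusted p = 0.132) and those of Tie1 by 0.050 ± 0.038 (adjusted p = 0.425). With run as a factor, 2 genes were called over deprivation, Esam (0.0471 per hour, adjusted p = 4.95e-04) and Flt1 (0.0292 per hour, adjusted p = 0.00208), against 2.23% of all probe sets, and 2 over sleep, Kdr and Tek, against 1.43%.

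In the order of the 9 group means, most neighbours did not differ beyond their spread, taken as the larger of the SDs of both. Pecam1 and Esam had no gap beyond that spread, but their 4 deprived groups were the 4 highest in each. Flt1 had 1 such gap, of 0.15, between its 5 highest groups (all 4 deprived groups and 12 h sleeping) and the rest. Kdr had 2, of 0.39 between 6 and 9 h and 0.38 between 9 and 12 h, each with both states side by side. Eng had 1, of 0.18, that set the 9 and 12 h sleeping groups below all others. Tek had 1, of 0.079, between baseline and the rest, and Cdh5 and Tie1 had none.

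Beyond the groups, the 8 genes varied together from heart to heart only in part. After group means were removed, the 28 pairs of genes had a median Pearson's r of 0.16 over 80 hearts, from -0.29 to 0.56, and 8 pairs had positive r and Spearman's rho with both permutation p-values past 0.05 after adjustment over the 28. The closest pair was Cdh5 and Eng (r = 0.56, p = 1e-05, adjusted p = 7e-05, rho = 0.55, p = 2e-05, adjusted p = 4.2e-04), where 1e-05 is the smallest p that 100000 resamples can give. Its r was 0.46 without the 2 hearts farthest from the median of Cdh5. Those hearts were taken by 1 gene of the pair, Tie1 in the pairs below, and the other gene was not used. Inside runs 1 to 4 the r of Cdh5 and Eng was 0.456, 0.782, 0.109 and 0.559. Tie1 went with Flt1 (r = 0.54, adjusted p = 7e-05, rho = 0.50, adjusted p = 4.2e-04, r = 0.50 without 2 hearts) and with Kdr (r = 0.45, adjusted p = 9.52e-04, rho = 0.48, adjusted p = 4.67e-04, r = 0.48 without 2 hearts). Inside runs 1 to 4 the r of Tie1 was 0.531, 0.225, 0.667 and 0.671 with Flt1, and 0.372, 0.533, 0.442 and 0.459 with Kdr. Kdr and Flt1 did not go together (r = 0.026, adjusted p = 0.884, rho = 0.042, adjusted p = 0.762). Tek and Tie1 had a negative r that missed 0.05 after adjustment (r = -0.29, p = 0.0241, adjusted p = 0.0676, rho = -0.24, p = 0.0414, adjusted p = 0.0945). Inside runs 1 to 4 the r of Tek and Tie1 was -0.557, -0.273, -0.139 and -0.0539. Of the 28 pairs, 9 were positive inside each of the 4 runs, and not all of the 8 pairs above were among them. Esam with Cdh5 (r = -0.304) and Esam with Eng (-0.199) turned negative in run 4, and Cdh5 with Kdr (-0.0526) in run 3. Every group after baseline was split over a pair of runs, and values were resampled within groups but not within runs. Eng after 12 h of sleep, for example, read 10.24 to 10.52 in run 1 and 10.54 to 10.67 in run 2. The pooled r and the permutation p-values can thus include shifts between runs that genes share, and their part was not tested.

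**Figure D4:**
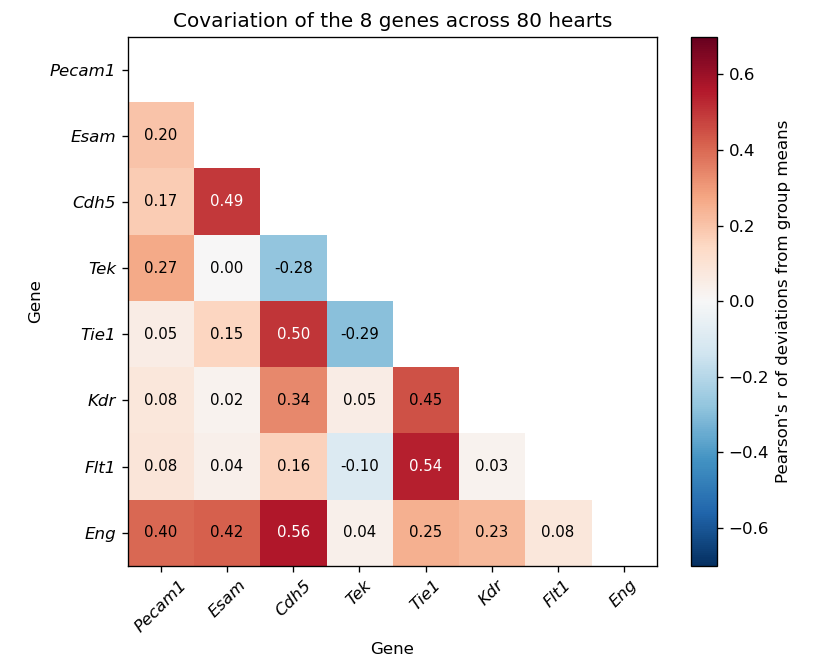
Pearson's r between the genes (both axes) across 80 hearts after group means were removed, with blue below 0 and red above. Cdh5 with Eng (0.56) and Tie1 with Flt1 (0.54) were the closest pairs, and Tek with Tie1 (-0.29) was the lowest.

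Other genes were ranked by the correlation of their deviations from group means over the same 80 hearts. The values are a description, as all points share arrays. Those most like the mean of the 8 genes were Nid1 (r = 0.77), Hspg2 (0.75), Ptprb (0.74), Ehd2 (0.67) and Lamc1 (0.66). Nid1, Hspg2 and Lamc1 encode the basement membrane proteins nidogen-1, perlecan and laminin γ1, and Ptprb encodes the endothelial phosphatase VE-PTP. Kdr was most like Lama4 (0.72), a laminin chain of vessel walls, Sema6d (0.71) and Rasgrp3 (0.69). Tie1 was most like Hspg2 (0.72), Myo10 (0.70) and Egfl7 (0.70), and Esam like Rnpep (0.67), Ube2j1 (0.65) and Gpihbp1 (0.62), which anchors lipoprotein lipase on capillary endothelium. Cdh5 was most like Cox8b (0.82) and Ndufa11 (0.78), both of the mitochondrial respiratory chain and with no endothelial restriction, and Plxnb2 (0.79). Flt1 was most like Igf2r (0.61), Fam160a1 (0.61) and Bmp6 (0.59), Eng like Tom1 (0.67), Pxn (0.66) and Loxl1 (0.65), Tek like Ppm1k (0.68), Cd47 (0.66) and Nfyb (0.65), and Pecam1 like Postn (0.60), Sptan1 (0.58) and Ccdc80 (0.57).

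Among 12 ligands of the receptors, 1 was higher and 1 lower in deprived hearts over the 4 times (median 0.040). Of all probe sets 3.43% were called higher and 4.94% lower in this fit, and 10.4% were called with time of day as a factor. These shares stand beside the count of each further list by state over the 4 times. Pgf, placental growth factor and a ligand of VEGFR1, was higher by 0.33 ± 0.066 (adjusted p = 1.32e-04), and Vegfc, a ligand of VEGFR3 and VEGFR2, differed by -0.23 ± 0.041 (adjusted p = 1.84e-05). With time of day as a factor, Angpt2 (0.205 ± 0.0474, adjusted p = 8.25e-04) and Vegfd (-0.139 ± 0.0347, adjusted p = 0.00202) were called too. Ligands also changed over the light phase. Vegfa, the main ligand of VEGFR2, changed by -0.52 ± 0.069 over 12 h of deprivation (adjusted p = 1.34e-07) and by -0.47 ± 0.041 over 12 h of sleep (adjusted p = 9.05e-13). Pgf changed by 0.83 ± 0.094 over deprivation (adjusted p = 2.75e-09) and by 0.73 ± 0.074 over sleep (adjusted p = 7.84e-11), whereas Vegfb, another ligand of VEGFR1, changed by -0.15 ± 0.033 and -0.17 ± 0.040 (adjusted p = 7.96e-04 and 7.53e-04). Angpt2, the angiopoietin that can oppose TIE2 signalling, changed by -0.55 ± 0.11 over deprivation (adjusted p = 1.13e-04) and by -0.61 ± 0.087 over sleep (adjusted p = 2.27e-07). Angpt1, the activating ligand of TIE2, changed by -0.058 ± 0.11 and by 0.071 ± 0.084 (adjusted p = 0.811 and 0.596). In all, 1 ligand rose and 4 fell over deprivation, and 2 rose and 6 fell over sleep, against 10.2 and 17.6% of all probe sets called. These trends span the runs: between 9 and 12 h limma called 0 of the 12 ligands in either state (4 with an unadjusted p under 0.05 in deprived and 5 in sleeping mice), and Vegfa had -0.16 ± 0.056 in deprived and -0.18 ± 0.054 in sleeping mice (unadjusted p = 0.00431 and 0.00169, adjusted p = 0.192 and 0.0606).

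Endoglin ligands were not called by state. Gdf2, which encodes BMP9, read -0.035 ± 0.038 (adjusted p = 0.642), Bmp10, a product mainly of the right atrium, read 0.46 ± 0.42 (adjusted p = 0.568), and Tgfb1 and Tgfb3 read 0.033 ± 0.047 and 0.050 ± 0.027 (adjusted p = 0.743 and 0.246). Of 13 partner receptors and phosphatases, 2 were higher in deprived hearts and 0 lower (unadjusted 4 and 2), with a median of -0.0010: the sphingosine-1-phosphate receptor S1pr1 by 0.27 ± 0.054 (adjusted p = 1.52e-04) and Robo4 by 0.24 ± 0.032 (adjusted p = 4.11e-08). With time of day as a factor 4 were higher and 2 lower, and the genes added, named after their values were seen, were Ramp2 (0.157, adjusted p = 1.38e-04), Flt4 (0.142, adjusted p = 0.00428), Nrp1 (-0.126, adjusted p = 5.55e-04) and Aplnr (-0.396, adjusted p = 8.34e-05). Of 18 other junction genes, 0 were higher and 3 lower (unadjusted 3 and 6), with a median of -0.036: Jam2 at -0.085 ± 0.021, Jam3 at -0.14 ± 0.034 and the catenin Ctnna1 at -0.094 ± 0.022 (adjusted p = 0.00213, 0.00137 and 0.00114). With time of day as a factor 1 was higher and 4 lower, and the genes added, named after their values were seen, were Cldn5 of the tight junction (0.257 ± 0.0585, adjusted p = 6.76e-04) and the connexin Gja5 (-0.304 ± 0.0792, adjusted p = 0.00333).

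Of 6 genes of the endothelial Notch pathway, 4 were higher and 0 lower in deprived hearts (unadjusted 4 and 1, median 0.23), among them Notch4 by 0.35 ± 0.036 (adjusted p = 6.94e-12), Hey1, a transcriptional target of the pathway, by 0.27 ± 0.034 (adjusted p = 8.53e-09) and Notch1 by 0.20 ± 0.030 (adjusted p = 3.06e-07). Hes1, another target of the pathway, named after its value was seen, was the gene of opposite sign, at -0.181 ± 0.0773 (adjusted p = 0.117), and was called lower with time of day as a factor (-0.188, adjusted p = 0.00518). Of 16 transcription factors of endothelium, 3 were higher and 0 lower (unadjusted 4 and 0, and 4 and 0 called once time of day was a factor, median 0.012): the flow-responsive Klf2 by 0.26 ± 0.037 (adjusted p = 1.35e-07) and Klf4 by 0.24 ± 0.053 (adjusted p = 4.32e-04), and Foxo1 by 0.19 ± 0.030 (adjusted p = 2.85e-06). Of 18 other endothelial markers, 3 were higher and 1 lower (median 0.0090), with Gpihbp1 at 0.31 ± 0.051 and thrombomodulin, Thbd, at 0.21 ± 0.033 (adjusted p = 3.17e-06 and 1.69e-06), and Clec14a at -0.18 ± 0.037 (adjusted p = 2.45e-04). The mean of these 18 markers ran from 8.32 to 8.54 (median 8.42) in deprived and from 8.17 to 8.501 (median 8.41) in sleeping mice, so that the states overlapped widely. Of 4 genes of activated endothelium, 0 were higher and 1, Sele, was lower (-0.22 ± 0.038, adjusted p = 1.25e-05).

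Markers of other cell types in the heart were set beside the state difference. Of 9 markers of pericytes and smooth muscle, 0 were higher and 3 lower in deprived hearts (unadjusted 4 and 3), Pdgfrb at -0.14 ± 0.033, Kcnj8 at -0.12 ± 0.034 and Abcc9 at -0.11 ± 0.023 (adjusted p = 9.62e-04, 0.00761 and 1.63e-04). Of 6 fibroblast markers 1, Lum, was lower (-0.24 ± 0.032, adjusted p = 4.07e-08), and of 6 macrophage markers 1, Cd163, was higher (0.30 ± 0.075, adjusted p = 0.0022). Of 5 markers of lymphatic endothelium, Lyve1 was higher (0.41 ± 0.061, adjusted p = 3.80e-07) and Prox1 lower (-0.27 ± 0.070, adjusted p = 0.00447). Limma called 0 of 5 cardiomyocyte, 0 of 4 platelet, 0 of 5 lymphocyte, 0 of 3 erythroid and 0 of 4 adipocyte markers, of which 0, 2, 0, 2 and 0 had an unadjusted p under 0.05. The mean of the platelet markers, cells that also carry PECAM-1 and ESAM, ran from 6.93 to 8.22 (median 7.40) in deprived and from 6.66 to 8.13 (median 7.30) in sleeping mice, with a median state difference of 0.23. The mean of the cardiomyocyte markers ran from 12.8 to 12.9 in both states, and that of the erythroid markers from 5.70 to 6.84 in deprived and from 5.51 to 6.42 in sleeping mice. At 12 h 3 of the 5 lymphocyte markers were lower in deprived hearts (median of the list -0.90), against 3.13% of all probe sets called. The 4 adipocyte markers, of which 0 were called and 4 had an unadjusted p under 0.05, had a median of -1.14. The part of these cells in the differences of the 8 genes was not tested.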

How the data were processed

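Total RNA of heart samples was hybridised to Affymetrix Mouse Gene 1.0 ST arrays. The deposited values are log2 intensities that the authors made by RMA in R/oligo for the heart arrays on their own. They were deposited without decimal points, which were restored from the range of the log2 scale, with 173798 of the values read as 2 digits before the point and 1 ambiguous value placed with the other arrays of that probe set. Restored values ran from 1.38 to 13.8. The table of 35556 probe sets named 1 symbol for 21218, several for 1881 and none for 12457, and no probe set was filtered.

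State (34 deprived, 36 sleeping arrays), state at each time, its interaction with time, differences from baseline and slopes on hours were fitted with limma 3.58.1 in R 4.3.3. P-values were adjusted by Benjamini-Hochberg over all probe sets, with a call at a false discovery rate of 1%. The model of state without time follows the methods of the study, whose own program was not used. Nothing in the labels numbers animals across groups, and p-values measure the spread between animals. Correlations of deviations from group means were tested by permutation within groups with 100000 resamples (Python 3.11.15, numpy 2.4.6, pandas 2.3.3, scipy 1.17.1, figures with matplotlib 3.10.9).

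All 8 genes were named, with all ligands, the up to 3 genes of smallest p in each list and the genes closest in correlation. The genes and the lists were chosen with earlier results of these data known, and 13 listed symbols had no probe set of their own. Alternatives were other scalings, filters and variance models, run and time of day as factors, and leaving out times, runs or arrays. The 12 h against 9 h comparison, the difference of slopes and leaving out single arrays were added after the data were seen. The fits were tested on simulated data. No pair of arrays held identical values.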

Additional observations from a re-analysis of the deposited data

Results flagged for a closer look

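In 72 tests, 1 for each gene in each of the 9 groups, a sample stood apart from the rest of its group by Dixon's criterion 5 times, and chance alone gives about 1 in 20. Pecam1 read 10.10 in baseline animal 4, with the next animal at 9.96. Cdh5 read 11.07 in 3 h deprived animal 7, with the next at 10.90, and 11.11 in 12 h deprived animal 3, with the next at 10.79. The array of the last animal is 1 of the 5 of low correlation. Tek read 9.10 in 12 h sleeping animal 2, the lowest of its group, with the next at 9.21. Tie1 read 9.38 in 6 h deprived animal 7, with the next at 9.21.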

How the results depend on the processing

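The state differences of Pecam1, Esam and Flt1 over the 4 times were positive under every alternative run and were called in all of them but the fits of single runs, where only Esam in run 3 was. Eng was also positive throughout, and its call was lost in runs 2, 3 and 4, without the 9 h animals (0.122) and without the 12 h animals (0.0892). With each of the 70 arrays left out in turn they lay between 0.153 and 0.163 (Pecam1), 0.199 and 0.217 (Esam), 0.144 and 0.158 (Flt1) and 0.126 and 0.146 (Eng), with a highest adjusted p of 0.00257 for Eng. Those of genes that were not called lay between 0.047 and 0.0693 (Cdh5), 0.0203 and 0.0395 (Tek), 0.0192 and 0.0386 (Tie1) and -0.0245 and 0.0132 (Kdr). Runs 1 to 4 alone, with fewer arrays, called 632, 392, 328 and 229 probe sets and 1, 0, 1 and 0 of the 8 genes, and leaving out the 6 h or the 9 h animals left 1826 and 1567 probe sets. Signs turned, near 0 and uncalled, for Kdr (centred 0.0161, without 3 h 0.0201, run 1 0.0266, run 3 0.0425), Tek (without 12 h -0.00107, run 3 -0.0184, run 4 -0.00927) and Cdh5 (run 3 -0.0399). With the arrays of a single time alone, 1 gene was called at 6 h, 0 at 9 h and 1 at 12 h, and the gene was Esam at 6 and at 12 h. The calls of Pecam1 and Flt1 at 6 h, of Pecam1, Flt1 and Eng at 9 h and of Pecam1 and Eng at 12 h were lost there. Those of Pecam1 at 6 h and of Eng at 9 h were each lost in 2 alternatives. At 3 h, Flt1 alone was called (1 gene) without the 5 arrays of low correlation, with array weights and above the 40th percentile of intensity, and at 12 h centring called 5 genes, Cdh5 (0.26, adjusted p = 0.00593) and Tek (0.148, adjusted p = 0.0066) added. Further turned signs at single times were Eng -0.00526 at 3 h and Kdr -0.0166 at 6 h, -0.00151 at 9 h and 0.000561 at 12 h without the 5 arrays. With array weights they were Cdh5 -0.0056, Tek 0.00111 and Eng -0.000946 at 3 h and Kdr -0.000689 at 6 h. With centring they were Tek 0.00975 and Tie1 0.00679 at 6 h and Kdr 0.0258 at 12 h, and with quantile normalisation Kdr -0.0123 at 6 h. Against baseline, signs turned for Kdr at 3 h of sleep (-0.00155), Flt1 at 9 h of sleep (-0.00191) and Eng at 6 h of deprivation (-0.00564) without the 5 arrays, and for Flt1 at 9 h of sleep with centring (-0.0226). Over sleep, 2 genes were called without the 12 h animals (Flt1 at -0.00114 per hour) and 2 with run as a factor (Esam at 0.0096). Over deprivation, 1 was called without baseline (Esam at -0.0012), and Eng read 0.00162 with run as a factor. Between 9 and 12 h, signs turned for Esam in sleep (centred -0.0141) and, in deprivation, for Tie1 (run 0.00196, quantile 0.0126), Cdh5 (centred -0.0153, without the 5 arrays -0.0528) and Pecam1 (quantile 0.00793). The causes were not tested. No paired analysis was possible because the labels give no replicate numbers that groups share.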
